A study of Mus musculus with 10 samples.

Results

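The 10 genes described here belong to the fat cell or to the lipid droplet of other cells, and their levels were read in the tibialis anterior muscle of 10 mice, 6 of them with tumors. The genes were taken by name from a list of known fat-cell and droplet genes (Adipoq, Fabp4, Plin1, Plin2, Plin4, Plin5, Pnpla2, Lipe, Cfd and Cidec), by a rule that sets no limit on their measured values. All 10 were matched among the 39179 genes listed in every library, and 9 passed the filter on low counts that left 12690 genes for testing. The exception was Plin1, which had 2 to 14 counts in every library.

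Fat is stored in cells as droplets of triglyceride covered by a protein coat. Adipocytes hold it in large droplets coated by perilipin 1, and they secrete adiponectin (Adipoq) and the complement protease adipsin (Cfd). Muscle fibers hold small droplets beside their mitochondria, coated by other perilipins, and free fatty acids from them by the lipases that Pnpla2 and Lipe encode. A whole muscle may also carry fat cells between and around its fibers, so that its RNA can hold both groups of transcripts.

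The Control group was 4 mice injected with PBS in both flanks and the LLC group was 6 mice injected there with Lewis Lung Carcinoma cells, a transplantable mouse lung tumor line used as a model of cancer cachexia, in which muscle and fat waste. The sample labels give the strain as C57BL/6J, the age at injection as 10 weeks and collection after 23 days, whereas the text for the whole series gives male C57BL/10 mice of 8 weeks studied after 22 days. Mice were assigned at random, and each library is 1 animal. The study describes the 6 LLC mice as those that survived all 22 days. The 10 mice are otherwise described alike. Whole muscle was used, so in these bulk libraries fewer cells of a type and less RNA per cell cannot be told apart.

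Total counts were 16693209 to 21303084 per library, so that 3 counts were worth 0.141 to 0.180 CPM, a count relative to the library's scaled size. The 5 muscle fiber markers (Acta1, Ckm, Myh4, Tnnt3 and Mylpf) summed to between 62080 and 106600 CPM in every library. LLC 1 stood apart from the rest: it was the highest library in 29.6% and the lowest in 30.4% of the tested genes. Of all tested genes, 5.63% were past the threshold between LLC and Control, set at a change of at least 1.5-fold with p at or under 0.05 in the quasi-likelihood test of edgeR, adjusted by the method of Benjamini and Hochberg as for every adjusted p from edgeR below.

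The promoters of the contrasted genes differed in a feature that the choice of genes did not use, the number of CG dinucleotides, and 2 windows of each kind are shown for that reason. They were chosen after the values were seen. Each is 300 bases from RefSeq (GRCm38.p6), from 250 before to 50 after the annotated start, written 5′ to 3′ along the gene with each CG in capitals. The first 2 belong to fat-cell genes, Adipoq (chr16:23146286-23146585, plus strand) and Cfd (chr10:79890603-79890902, plus strand). The other 2 belong to droplet genes, Plin5 at its upstream start (chr17:56117499-56117798, minus strand) and Pnpla2 (chr7:141454938-141455237, plus strand).
Adipoq: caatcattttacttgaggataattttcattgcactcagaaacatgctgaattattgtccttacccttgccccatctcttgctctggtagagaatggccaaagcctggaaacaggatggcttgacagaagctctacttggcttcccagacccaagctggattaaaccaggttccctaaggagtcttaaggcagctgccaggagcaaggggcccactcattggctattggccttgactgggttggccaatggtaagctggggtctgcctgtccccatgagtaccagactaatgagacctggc
Cfd: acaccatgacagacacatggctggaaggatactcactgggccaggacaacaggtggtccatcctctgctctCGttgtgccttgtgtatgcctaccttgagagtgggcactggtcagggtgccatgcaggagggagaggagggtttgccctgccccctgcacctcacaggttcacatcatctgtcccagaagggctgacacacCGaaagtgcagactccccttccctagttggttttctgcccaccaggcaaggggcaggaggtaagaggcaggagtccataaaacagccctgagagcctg
Plin5: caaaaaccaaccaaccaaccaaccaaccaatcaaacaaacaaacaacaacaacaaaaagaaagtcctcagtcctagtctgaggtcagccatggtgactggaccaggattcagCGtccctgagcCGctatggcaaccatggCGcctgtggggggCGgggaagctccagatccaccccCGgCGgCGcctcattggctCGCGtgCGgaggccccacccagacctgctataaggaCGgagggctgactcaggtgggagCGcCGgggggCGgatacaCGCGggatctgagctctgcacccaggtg
Pnpla2: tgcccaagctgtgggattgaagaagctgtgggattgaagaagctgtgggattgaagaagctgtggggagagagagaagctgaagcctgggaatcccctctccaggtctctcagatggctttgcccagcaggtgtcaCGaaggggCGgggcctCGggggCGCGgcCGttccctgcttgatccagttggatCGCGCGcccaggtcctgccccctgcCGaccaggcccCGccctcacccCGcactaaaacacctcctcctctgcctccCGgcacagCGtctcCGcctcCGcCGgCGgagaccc
The Adipoq window holds 0 CG dinucleotides and the Cfd window 2, as does that of Plin1, against 16 in the Plin5 window and 18 in that of Pnpla2. Plin2 has 10 and Plin4 has 7. The windows of genes outside the contrast did not all follow it: Cidec has 6 and 7 in its windows, and Lipe has 19 and 2. The median of all 32851 windows is 7, and windows with 2 or fewer make up 23.3% of all windows and windows with 10 or more make up 43.5%. Windows were found for 9 of the 10 genes, 12 windows in all. The hexamer AGGTCA, read on both strands, is part of the element that nuclear receptors such as the PPARs bind, and it was present in the windows of Plin2 and Plin5 and in 16.255% of all windows. None of the 12 windows held that hexamer repeated with 1 base between the copies. The FoxO sequence TGTTTAC was present in 1 of the windows of Lipe and in 3.65% of all windows.

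None of the 9 tested genes was past the threshold between LLC and Control. By edgeR, unadjusted p was at or under 0.05 in 4 of the 9 (Plin4, Plin5, Lipe and Cfd), against 27.4% of all tested genes, and DESeq2 and limma voom also called 0 of them. The groups did not overlap, with LLC higher, for 2 genes (Plin4 and Lipe), against 6.4% of all tested genes, and with LLC lower for 0 genes, against 9.57%. A pair of patterns recurred among the libraries. Adipoq, Cfd and Cidec were lower in all 6 LLC mice and in Control 4 than in Control 1, 2 and 3, and Plin2, Plin4, Plin5 and Pnpla2 were highest in LLC 1. That library was the highest in 29.6% of all tested genes, so the pattern in LLC 1 is not particular to these genes.

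**Figure D1:**
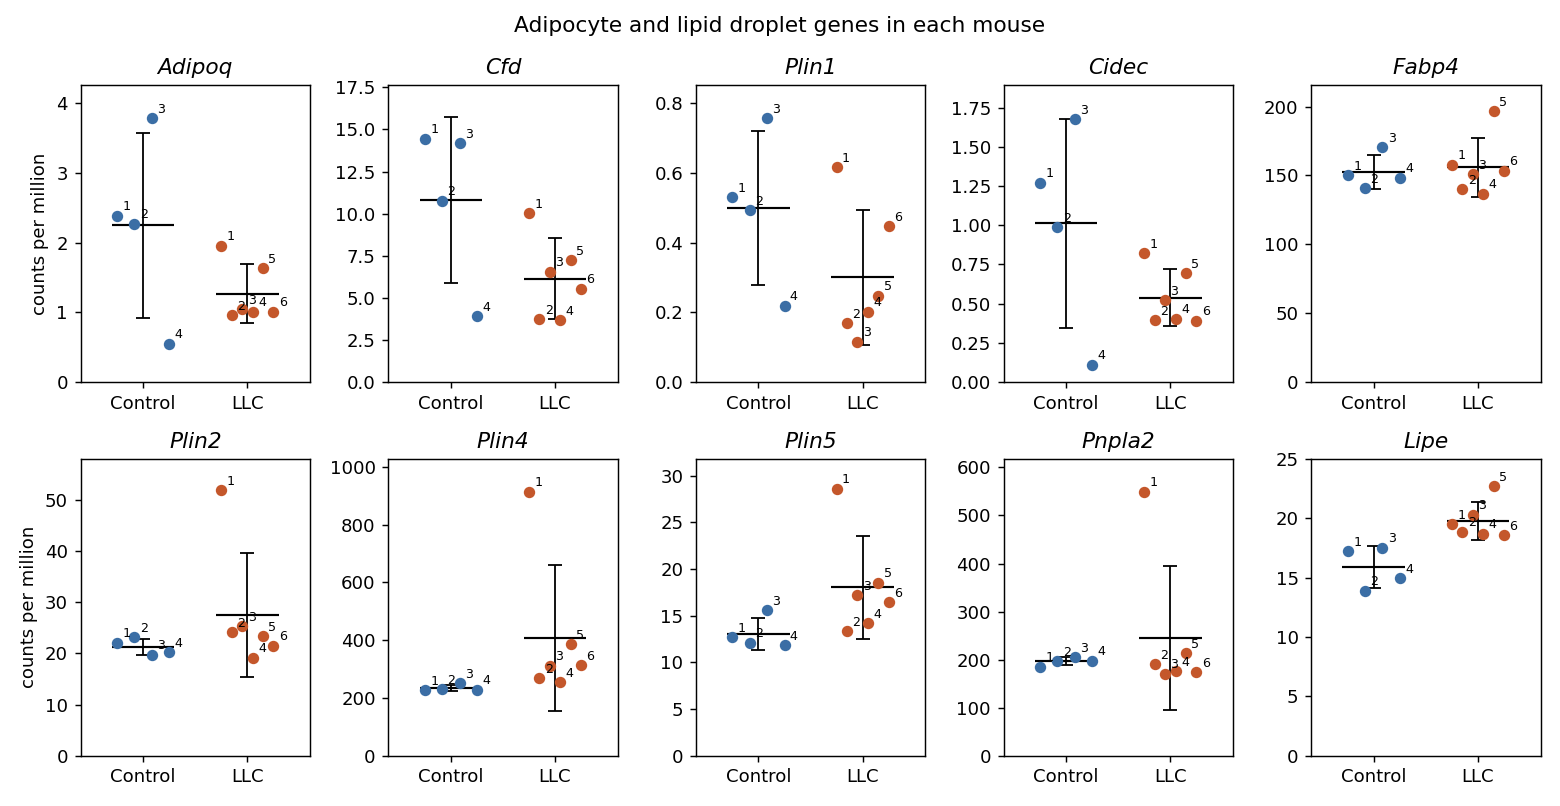
Each panel plots CPM (vertical axis, from 0) for 1 gene in the 4 Control and 6 LLC libraries, with the replicate number beside each point, the group mean as a horizontal line and 1 SD as the error bar. Control 4 is the lowest Control in the panels of Adipoq, Cfd, Plin1 and Cidec, and LLC 1 is the highest library in those of Plin2, Plin4, Plin5 and Pnpla2.

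Adipoq (ENSMUSG00000022878, chr16:23146536-23158028 on GRCm38, plus strand), which encodes the insulin-sensitizing hormone adiponectin, was at 2.38, 2.27, 3.79 and 0.548 CPM in Control 1 to 4. In LLC it ranged from 0.96 to 1.95 CPM with a median of 1.02. All 6 LLC mice lay below Control 1, 2 and 3 and above Control 4, so the groups overlapped through that 1 Control. The log2 fold change of LLC over Control was -0.82 ± 0.40 (SE), with an adjusted p of 0.203 by the edgeR quasi-likelihood test. Without Control 4 it was -1.14 with an adjusted p of 0.0497 by the same test, and Adipoq was then past the threshold. Without Control 3, the highest Control, it was -0.45 with an adjusted p of 0.519 by that test.

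Cfd (ENSMUSG00000061780, chr10:79890853-79892655, plus strand) encodes adipsin, the protease that cleaves factor B in the alternative complement pathway. Of Adipoq, Cfd, Plin1 and Cidec it had the highest CPM, at 14.5, 10.8, 14.2 and 3.89 CPM in Control 1 to 4. Its LLC values ran from 3.68 to 10.0 CPM with a median of 6.04. Again every LLC mouse was below Control 1, 2 and 3, and Control 4 lay among the lowest LLC mice. The log2 fold change was -0.82 ± 0.35 (SE, adjusted p = 0.164 by the edgeR quasi-likelihood test). With Control 4 left out it was -1.10 (adjusted p = 0.0628 by that test), and with LLC 1 left out as well it was -1.28 (adjusted p = 0.00499), which is past the threshold.

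Cidec (ENSMUSG00000030278, chr6:113424634-113435760, minus strand) encodes the protein that fuses lipid droplets into the large droplet of the fat cell. It had 24, 20 and 31 counts in Control 1 to 3 and 2 counts in Control 4, which is below the 3 counts taken as detected. The corresponding levels were 1.27, 0.988, 1.68 and 0.110 CPM, and LLC ranged from 0.391 to 0.823 CPM with a median of 0.462. The order of the mice was that of Adipoq at its ends, with Control 3 highest and Control 4 lowest. The fold change on the log2 scale was -0.90 ± 0.48 (SE, adjusted p = 0.235 by the edgeR quasi-likelihood test), and without Control 4 it was -1.26 with an adjusted p of 0.0402, past the threshold. Without Control 3 the value was -0.55 (adjusted p = 0.536 by that test).

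Plin1 (ENSMUSG00000030546, chr7:79720218-79732903, minus strand), the perilipin of the fat cell droplet and the gate through which hormones start lipolysis, was the rarest of the 10 genes. It had 10, 10, 14 and 4 counts in Control 1 to 4 and between 2 and 12 counts in LLC, with LLC 3 lowest and LLC 1 highest. In CPM the Control mean was 0.4999 ± 0.2205 (SD, n = 4) and the LLC mean 0.2998 ± 0.1927 (SD, n = 6). The groups overlapped, with 3 of 6 LLC mice below every Control. In a fit without the filter its log2 fold change was -0.70 ± 0.45 (SE, adjusted p = 0.408 by the edgeR quasi-likelihood test).

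The values of Adipoq and Cidec moved with which Control was left out, by over 1.5 times toward 0 without Control 3 and past the threshold without Control 4. In Control 4 the CPM relative to the mean of the other 3 Controls was 0.195 for Adipoq, 0.296 for Cfd, 0.369 for Plin1 and 0.0835 for Cidec, while for Fabp4, Plin2, Plin4, Plin5, Pnpla2 and Lipe it was between 0.880 and 1.01. With Control 4 and LLC 1 both left out, a setting chosen after the data were seen, 3 genes were past the threshold (Adipoq, Cfd and Cidec), all of them lower in LLC. Other markers of the adipocyte were at similar levels: Adig, Lep and Retn had Control means of 1.42, 0.385 and 0.684 CPM. The list of 8 adipocyte markers, which includes Adipoq, Cfd, Plin1 and Cidec, summed to between 5.81 and 24.3 CPM in Control. In LLC the sum was between 6.95 and 15.2 CPM. The 5 of them that were tested were Adipoq, Cfd and Cidec, already described, with Retn and Adig. None was past the threshold, though all 5 log2 fold changes were below 0. Their median of -0.82, against 0.0019 over all tested genes, is the value of Adipoq itself. Retn was at -0.74 (adjusted p = 0.268 by the edgeR quasi-likelihood test) and Adig at -0.25 (adjusted p = 0.529 by that test).

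Other cell types of the muscle moved with the same groups. All 8 fibroblast markers were past the threshold and lower in LLC, with sums of 282 to 356 CPM in Control and 65.6 to 108 CPM in LLC. Among the endothelial markers 1 of 8 (Kdr) was past the threshold and lower, with sums of 307 to 383 CPM in Control and 295 to 340 CPM in LLC. Of the 8, 5 had log2 fold changes below 0 and 3 above, and 6 had unadjusted p at or under 0.05. Cdh5, Emcn and Tie1 were lower by less than 1.5-fold, with adjusted p of 0.0323, 0.0194 and 0.0392 by the edgeR quasi-likelihood test. Among the macrophage markers 1 of 7 tested (Mrc1) was past the threshold and lower, with sums of 15.5 to 23.1 CPM in Control and 9.73 to 17.1 CPM in LLC. All 7 tested neutrophil markers were higher, from sums of 0.688 to 2.03 CPM to sums of 32.8 to 70.9 CPM. Their part in the values of the fat-cell genes was not tested.

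**Figure D2:**
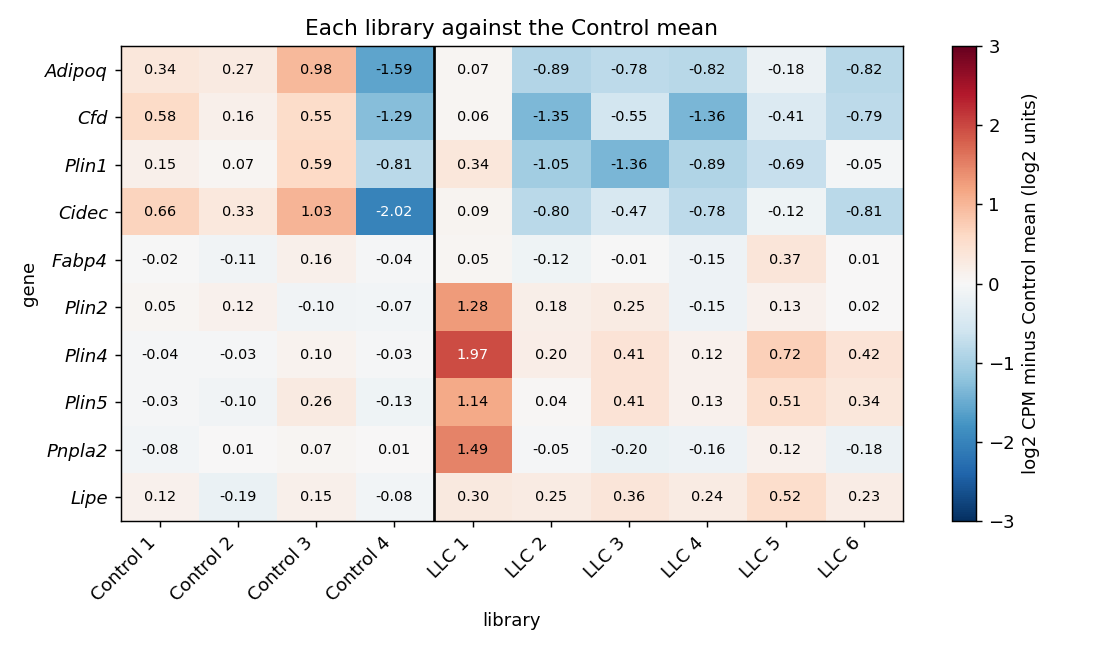
Rows are the 10 genes and columns the 10 libraries, with Control left of the black line. Color and number give the log2 CPM minus the mean of the 4 Controls. In the column of Control 4 Adipoq is at -1.59 and Cidec at -2.02, and in the column of LLC 1 Plin4 is at 1.97 and Pnpla2 at 1.49.

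Fabp4 (ENSMUSG00000062515, chr3:10204088-10208576, minus strand), a fatty acid carrier of fat cells that capillary endothelium and macrophages also express, did not follow the fat-cell genes. Its levels were 150, 141, 170 and 148 CPM in Control 1 to 4. In LLC it lay between 137 and 197 CPM with a median of 152, and Control 4 was within that range. The log2 fold change was 0.03 ± 0.11 (SE, adjusted p = 0.871 by the edgeR quasi-likelihood test), and its sign changed with the setting. Scaled by upper-quartile factors it was -0.0045.

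The droplet genes were highest in LLC 1, as were 29.6% of all tested genes. Plin2 (ENSMUSG00000028494, chr4:86648386-86670060, minus strand), which coats small droplets in most cells and is degraded when not bound to lipid, was at 22.1, 23.2, 19.8 and 20.2 CPM in Control 1 to 4. LLC 1 had 52.0 CPM, and the other 5 LLC mice had 19.2 to 25.3. Apart from LLC 1 the LLC values spanned those of the Controls. The log2 fold change of 0.37 ± 0.25 (SE, adjusted p = 0.334 by the edgeR quasi-likelihood test) was 0.10 without LLC 1.

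Plin5 (ENSMUSG00000011305, chr17:56111601-56117596, minus strand) is the perilipin of oxidative tissues that ties droplets to mitochondria. It was at 12.7, 12.1, 15.6 and 11.8 CPM in Control 1 to 4, 28.6 in LLC 1 and 13.3 to 18.5 in the other LLC mice. Of the LLC mice 4 were above every Control and 0 were below every Control, and LLC 2 and LLC 4 lay within the Control range. The change was 0.47 ± 0.20 on the log2 scale (SE, adjusted p = 0.156 by the edgeR quasi-likelihood test) and 0.30 without LLC 1 (adjusted p = 0.109).

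Plin4 (ENSMUSG00000002831, chr17:56100591-56109803, minus strand), a perilipin of nascent droplets in fat and muscle, lies 1797 bases from Plin5 on the same strand. Its exons overlap those of the antisense gene Hdgfl2 by 17 bases. Its levels were 227, 230, 252 and 229 CPM in Control 1 to 4. In LLC 1 the level was 914 CPM, and in the other LLC mice it was 254 to 385 CPM. All 6 LLC mice were above all 4 Controls, although LLC 4 at 254 CPM exceeded Control 3 at 252 CPM by less than the Control SD of 11.6. The largest difference among the droplet genes was here, at 0.80 ± 0.33 on the log2 scale (SE, adjusted p = 0.152 by the edgeR quasi-likelihood test). Without LLC 1 the estimate dropped to 0.40 while its adjusted p became 0.0324, which met the limit on p but not the 1.5-fold minimum. With all 10 libraries limma voom gave 0.34 (adjusted p = 0.0421 by that method), also below 1.5-fold.

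Pnpla2 (ENSMUSG00000025509, chr7:141455198-141460743, plus strand) encodes adipose triglyceride lipase, the enzyme that takes the first fatty acid from a triglyceride. It was at 185, 197, 205 and 198 CPM in Control 1 to 4 and at 550 CPM in LLC 1. In the other 5 LLC mice it was between 170 and 214 CPM, and 3 of them were below every Control. With LLC 1 the log2 fold change was 0.32 ± 0.32 (SE, adjusted p = 0.515 by the edgeR quasi-likelihood test), and without it -0.08.

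Lipe (ENSMUSG00000003123, chr7:25379527-25398710, minus strand) encodes hormone-sensitive lipase, which acts next on diglycerides and is used by both fat cells and muscle. It showed neither the low Control 4 of the fat-cell genes nor the high LLC 1 of the droplet genes. Like Plin4, it did not overlap between the groups. Control 1 to 4 had 17.2, 13.9, 17.5 and 14.95 CPM, and LLC ranged from 18.6 to 22.7 CPM with a median of 19.2. Every LLC mouse was above every Control, LLC 1 ranked 3 of 10, and the gap between the groups was about 1 CPM. The log2 fold change was 0.31 ± 0.10 (SE, adjusted p = 0.0785 by the edgeR quasi-likelihood test) and stayed between 0.25 and 0.36 in 20 alternative settings, below 1.5-fold in each. Without LLC 1 its adjusted p was 0.0397 by that test. With all 10 libraries it was 0.035 by the DESeq2 Wald test and 0.0293 by limma voom, so there only the 1.5-fold minimum was not met. Its exons overlap those of the antisense gene 4732471J01Rik by 918 bases, and the strand setting used for counting was not known.

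LLC 1 held 2.29 times the mean of the other 5 LLC mice in Plin2, 2.98 times in Plin4, 1.79 times in Plin5 and 2.98 times in Pnpla2, and 0.983 times in Lipe. Its share of mitochondrial counts was 22.0%, against 22.9% to 27.9% in the other LLC mice and 28.4% to 30.7% in Control. The part of that share in the droplet genes was not tested. Per kilobase of the principal transcript (RPKM), the Control means ran in the order Fabp4 at 170 ± 14.1 RPKM, Pnpla2 at 109 ± 4.58, Plin4 at 40.7 ± 2.01, Cfd at 11.7 ± 5.33, Plin2 at 11.3 ± 0.839, Plin5 at 6.57 ± 0.868, Lipe at 4.40 ± 0.488, Adipoq at 1.74 ± 1.03, Cidec at 0.588 ± 0.386 and Plin1 at 0.178 ± 0.0783 (SD, n = 4). Within libraries this order held between neighbors in all 4 Controls except for Cfd over Plin2 (2 of 4) and Cidec over Plin1 (3 of 4), which were not separated. Adipoq was above Cidec in all 10 libraries. The order depends on the length used: for Fabp4 the principal transcript has 896 bases, while all its annotated exons cover 4489. Levels per kilobase of all exons were not computed.

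**Figure D3:**
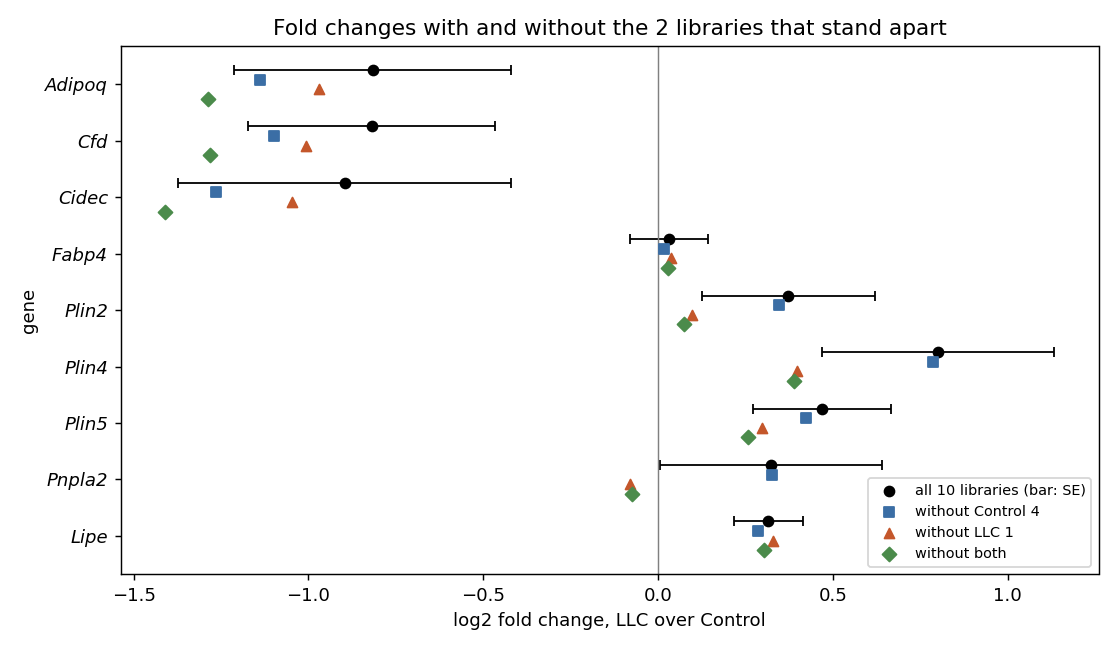
The horizontal axis is the log2 fold change of LLC over Control for the 9 tested genes, with all 10 libraries (circle, bar of 1 SE), without Control 4 (square), without LLC 1 (triangle) and without both (diamond). Without both, Adipoq, Cfd and Cidec lie at -1.29, -1.28 and -1.41, while Plin2 and Pnpla2 lie at 0.08 and -0.07.

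For the contrast between the groups of genes, a log2 ratio was taken within each library. It set a fat-cell gene (Adipoq, Plin1 or Cfd) over a droplet gene (Plin2, Plin5 or Pnpla2), 9 ratios in all. Such a ratio does not depend on how libraries are scaled to each other, apart from the prior count of 2 added to each gene. That count was scaled to library size, which matters most where counts are low, as in Plin1. All 9 mean ratios were lower in LLC, by between 0.74 and 1.16 log2 units. For Cfd over Plin5 the ratio was 0.19, -0.17, -0.14 and -1.58 in Control 1 to 4 and between -1.91 and -1.34 in LLC. That of Adipoq over Plin2 was -3.16, -3.29, -2.35 and -4.96 in Control 1 to 4, and -4.66 to -3.75 in LLC. In both, all LLC mice were below Control 1, 2 and 3, and Control 4 lay within the LLC range for Cfd over Plin5 and below it for Adipoq over Plin2.

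By an exact two-sided permutation test over the 210 ways to assign the 10 libraries, 0 of the 9 ratios had a Benjamini-Hochberg adjusted p over the 9 at or under 0.05, and in 4 the unadjusted p was. The Cfd to Plin5 ratio differed by -1.16 (exact permutation p = 0.0476, adjusted p = 0.0857) and the Plin1 to Plin2 ratio by -0.91 (exact permutation p = 0.0190, adjusted p = 0.0857). The Adipoq to Pnpla2 ratio differed by -0.74 (exact permutation p = 0.171, adjusted p = 0.171). Without Control 4 all 9 ratios passed, with differences of -1.55 to -1.07 and adjusted p of 0.0268 to 0.0476 by the exact permutation test, whose smallest possible p is then 0.0238. Without Control 3 the differences were -1.07 to -0.44 and 0 passed. With LLC 1 alone left out 0 passed, and with both left out 8 passed. These ratios share their genes and libraries, so the 9 are not independent. Plin1 had 2 to 14 counts per library and did not pass the filter on low counts, so its ratios depend on the added counts. In all 10 libraries with no counts added, the 9 differences were -1.27 to -0.76 and 0 passed. Their adjusted p was then 0.107 to 0.171 by the exact permutation test.

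**Figure D4:**
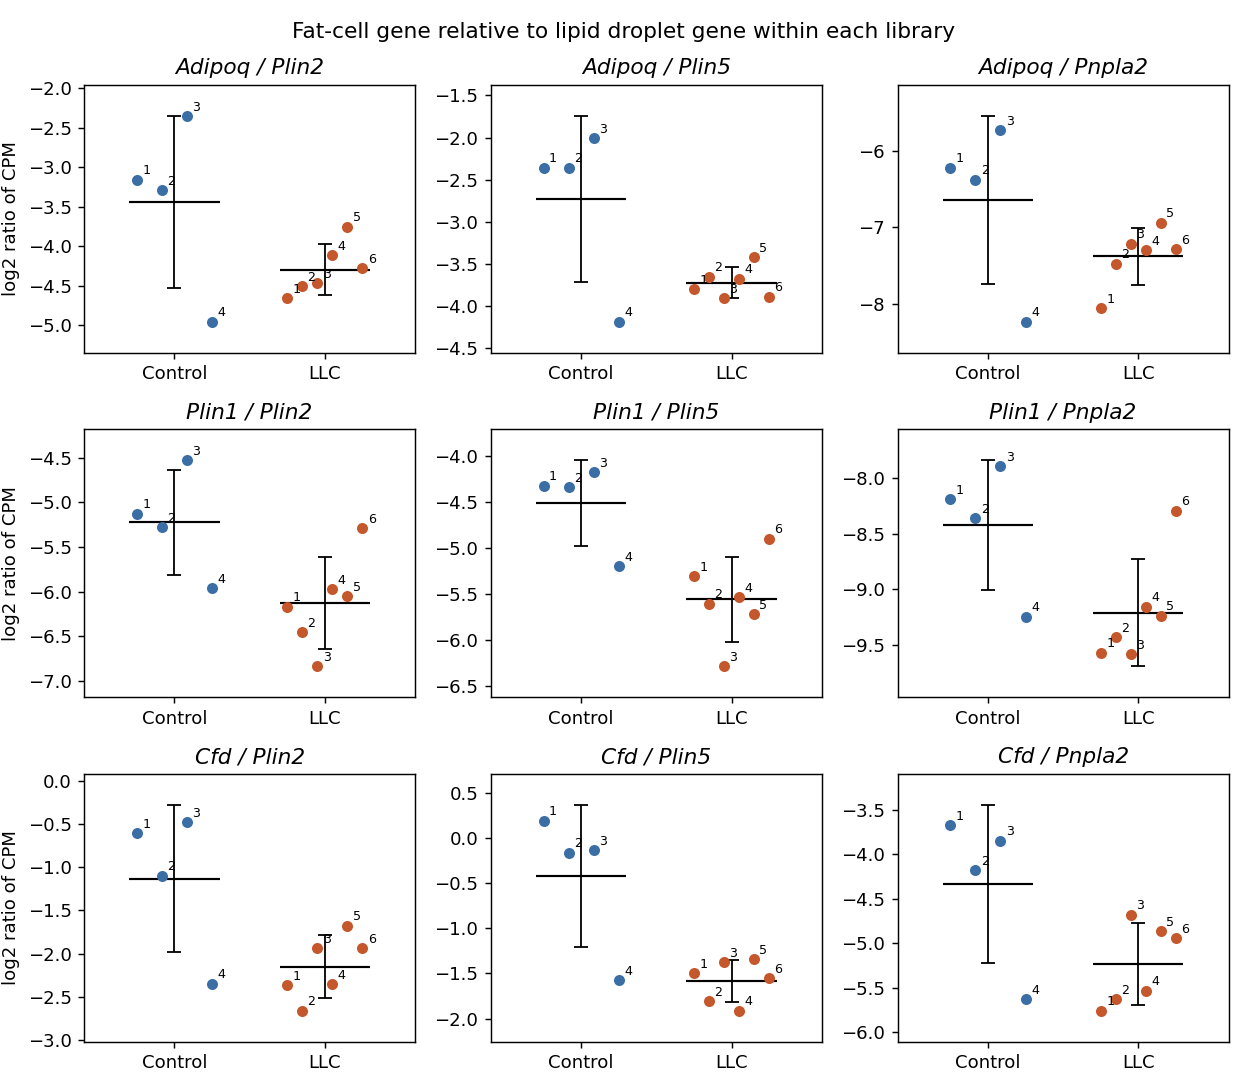
Each panel plots the log2 ratio of CPM of a fat-cell gene to a droplet gene (vertical axis) in the 4 Control and 6 LLC libraries, with replicate numbers, the mean as a line and 1 SD as the error bar. In the panel of Cfd and Plin5 the Control mean is -0.42 ± 0.79 and the LLC mean -1.58 ± 0.23.

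Across the 6 LLC mice the 15 pairs of these 6 genes all had positive correlations of log2 CPM. In 2 pairs p stayed at or under 0.05 by an exact permutation test after Benjamini-Hochberg adjustment over the 15, and both joined a fat-cell gene with Plin5. For Adipoq and Plin5, Pearson's r was 0.894 (exact permutation p = 0.00556, adjusted p = 0.0417) and Spearman's rho 0.943 (exact permutation p = 0.0167, adjusted p = 0.125), with r = 0.852 after LLC 1 and LLC 5, farthest from the Adipoq median, were left out. For Cfd and Plin5, r was 0.940 (exact permutation p = 0.00556, adjusted p = 0.0417) and rho 0.943 (exact permutation p = 0.0167, adjusted p = 0.125), with r = 0.994 without LLC 1 and LLC 4. Among the 3 droplet genes r was 0.899 to 0.956, but rho was 0.314 to 0.543 and r without LLC 1 was 0.213 to 0.332, so those relations rest on that mouse. Among the 3 fat-cell genes r was 0.563 to 0.848, and without LLC 1 it was 0.110 to 0.682. Without LLC 1 r was 0.727 for Adipoq and Plin5 and 0.982 for Cfd and Plin5. With 5 mice the smallest exact permutation p is 0.0167, so that no pair could pass after adjustment unless at least 5 pairs reached it, and the test is not informative there.

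The genes whose levels followed these most closely were found by Pearson's r over the 10 libraries after each group's mean was subtracted, as a description that shares libraries and depth. Adipoq was nearest to Cidec (r = 0.983), then to the tRNA methyltransferase gene Ftsj1 (0.920) and to Ramp2, a subunit of the adrenomedullin receptor (0.917), with Cfd in sixth place (0.907). With the droplet genes its r was 0.578 for Plin5, 0.370 for Pnpla2 and 0.351 for Plin2. Plin4 was nearest to the mitochondrial aldehyde dehydrogenase gene Aldh2 (0.995), Dazap2 (0.994) and Htatip2 (0.993), and its r was 0.968 with Pnpla2 and 0.158 with Lipe. Plin2 was nearest to Clcc1 (0.986), Riok3 (0.982) and Rragc (0.979), a GTPase of the amino acid sensing pathway. LLC 1 was the highest library for Plin2 and Plin4, and its weight in their r values is large. Control 4 lay below the Control mean by -1.59 log2 units in Adipoq, -2.02 in Cidec and -1.29 in Cfd. Its weight in the r values of Adipoq with Cidec and Cfd is therefore large as well.

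The wider lipid pathway was counted over 7 lists with 84 genes, of which 73 were tested. Past the threshold were 3, 1 higher and 2 lower in LLC, against 5.63% of all tested genes, and unadjusted p was at or under 0.05 in 18, against 27.4%. The median log2 fold change of the 73 was 0.0064.

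Lower in LLC was Scd1, the stearoyl-CoA desaturase that makes monounsaturated fatty acids for storage in triglyceride. It was at 35.2, 33.7, 46.8 and 14.0 CPM in Control 1 to 4 and between 4.61 and 11.5 CPM in LLC. All 6 LLC mice were below Control 4, the lowest Control. Its log2 fold change was -2.05 ± 0.31 (SE, adjusted p = 0.00251 by the edgeR quasi-likelihood test). Of the 11 tested genes of lipogenesis it was the only one past the threshold, and the 2 most abundant were Acacb (0.45, adjusted p = 0.149 by that test) and Me1 (0.53, adjusted p = 0.0190), whose change was below 1.5-fold. Of the 11, 6 had log2 fold changes above 0 and 5 below. By edgeR, unadjusted p was at or under 0.05 in 6, against 27.4% of all tested genes. Besides Scd1, Acacb and Me1, the 6 were Mlxipl (-0.47), Fasn (-0.34) and Thrsp (-0.36), named after their values were seen. Acacb encodes the acetyl-CoA carboxylase at the mitochondrion and Me1 the malic enzyme that supplies NADPH.

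Aqp7, the glycerol channel through which glycerol leaves fat cells and which muscle capillaries and fibers also carry, was lower in LLC as well. It was at 14.8, 9.73, 13.5 and 12.7 CPM in Control 1 to 4, with no low value in Control 4, and between 3.14 and 8.47 CPM in LLC, where LLC 1 was lowest. Its difference on the log2 scale was -0.99 ± 0.25 (SE, adjusted p = 0.0353 by the edgeR quasi-likelihood test). The call was lost when any 1 Control, LLC 5 or LLC 6 was left out. The other 8 tested adipocyte genes beyond the 10 were not past the threshold, but all 9 had log2 fold changes below 0, the highest at -0.0009, with a median of -0.36. The most abundant of them after Aqp7 was Thrsp (-0.36, adjusted p = 0.0776 by that test), an inducer of lipid synthesis genes.

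Acsl3, the acyl-CoA synthetase on nascent droplets, was higher in LLC. Its Control values were 11.3, 12.4, 23.4 and 12.5 CPM, and its LLC values were 17.3 to 35.3 CPM with a median of 28.4, so that LLC 4 lay below Control 3. On the log2 scale the difference was 0.89 ± 0.23 (SE, adjusted p = 0.0414 by the edgeR quasi-likelihood test). Leaving out Control 1, Control 2, Control 4, LLC 2, LLC 3, LLC 5 or LLC 6 ended the call. The other 12 genes of fatty acid uptake and activation did not pass, among them the 2 most abundant, the lipase Lpl (0.09, adjusted p = 0.562 by that test) and the fatty acid transporter Cd36 (0.30, adjusted p = 0.165). LLC 1 was the highest of the LLC libraries in Cd36, as in Plin2, Plin4 and Pnpla2.

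In the remaining 4 lists no gene was past the threshold by edgeR. Of 14 tested droplet and lipolysis genes, 7 had log2 fold changes above 0 and 7 below, and 4 were at or under 0.05 without adjustment. The most abundant were Fitm2 (-0.39, adjusted p = 0.0429 by the edgeR quasi-likelihood test, below 1.5-fold) and Fitm1 (-0.53, adjusted p = 0.223), which bud droplets from the endoplasmic reticulum. Besides Fitm2, the 4 were Plin3 (-0.45), Abhd5 (-0.32) and Aup1 (0.36), named after their values were seen. In Plin3, Abhd5, Fitm1 and Fitm2 every LLC mouse was below every Control, a pattern of 9.57% of all tested genes. Of 11 tested genes of triglyceride synthesis, 1 (Lpin2) was at or under 0.05 without adjustment, and the most abundant were the phosphatidate phosphatase gene Lpin1 (0.27, adjusted p = 0.193) and Gpam (-0.23, adjusted p = 0.650), which encodes the mitochondrial glycerol phosphate acyltransferase. Its relative Lpin2, named after its values were seen, was at 2.33 to 2.91 CPM in Control and at 34.0, 14.8 and 9.17 CPM in LLC 1, LLC 5 and LLC 6 but at 2.87 to 3.73 CPM in the other 3 LLC mice. DESeq2 called Lpin2 and edgeR did not (log2 fold change 2.05, adjusted p = 0.0952). Without adjustment, 0 of 9 tested genes of lipolysis signaling were at or under 0.05, with Pde4d at 0.08 and Insr at 0.30 on the log2 scale. Among 8 PPAR factors 2 were, Rxra at 0.19 and Rxrb at 0.30 (named after its values were seen), and Rxrg, the other of the 2 most abundant, was at -0.15.

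**Figure D5:**
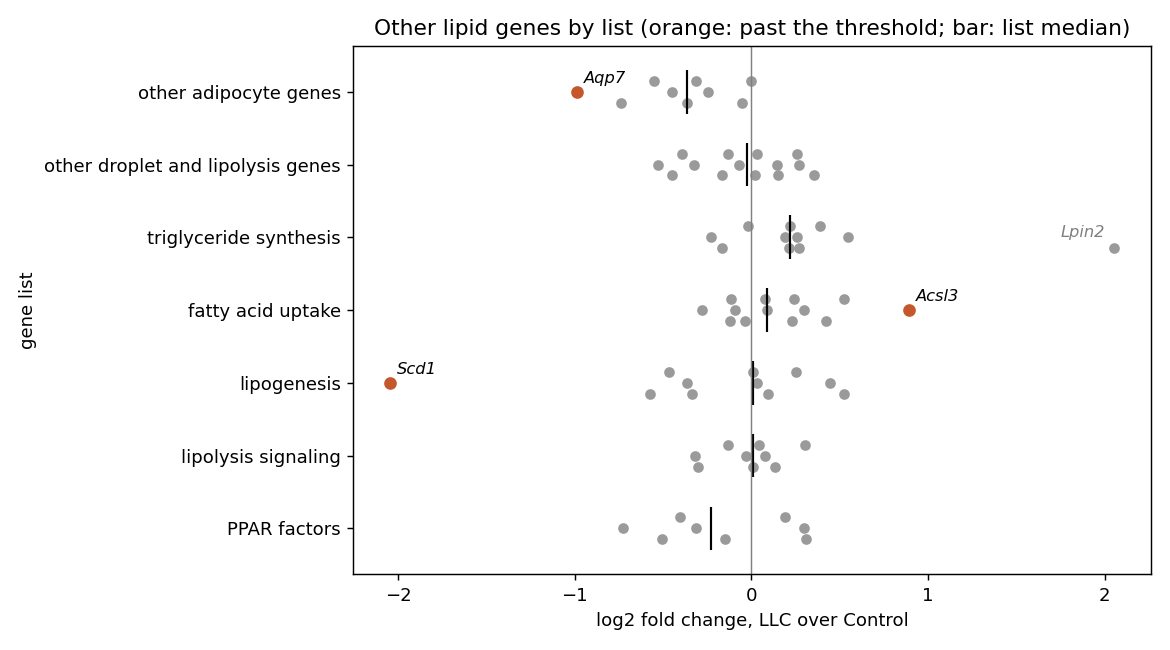
Each point is the log2 fold change of LLC over Control (horizontal axis) of 1 tested gene in 1 of 7 gene lists (vertical axis). Black bars mark list medians and orange points the 3 genes past the threshold, Aqp7 at -0.99, Acsl3 at 0.89 and Scd1 at -2.05, and all 9 adipocyte genes lie at or left of 0.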

How the data were processed

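RNA from the tibialis anterior was sequenced as stranded total RNA libraries, 1 per mouse, in 4 Control and 6 LLC mice grouped by their titles. The authors mapped reads to mm10 with TopHat2 and counted them with HTSeq, and the deposited values are raw counts per Ensembl gene, not normalized. The methods name RefSeq genes and HTSeq defaults, but the identifiers are from Ensembl, so the annotation release and strand setting are uncertain, which could change counts of overlapping genes. Symbols were found for 37607 of 39179 identifiers, and coordinates came from GENCODE M21 (GRCm38).

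Genes were kept by filterByExpr with a count minimum of 10, libraries were scaled by TMM, and LLC was compared with Control by the quasi-likelihood test of edgeR 4.0.16 (R 4.3.3), with Benjamini-Hochberg adjustment over 12690 genes. The script was tested on simulated data. CPM per library used TMM-scaled totals, and ratios and correlations used log2 CPM with a prior count of 2. Alternatives included DESeq2 1.42.0, limma 3.58.1 voom, other scalings and filters, and each mouse left out in turn. Exact tests used SciPy 1.17.1. The limit of 3 counts covers counting error only.

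The 10 genes and all lists were chosen with earlier results of these data known. All 10 were described, and from each other list every gene past the threshold and the 2 with the highest mean CPM. The 3 nearest genes by r were named for Adipoq, Plin4 and Plin2. A brown fat list had 4 of 6 genes tested and 0 past the threshold by edgeR, with 0 at an unadjusted p of 0.05 or less. Small RNA libraries were not analysed here.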

Additional observations from a re-analysis of the deposited data

Results flagged for a closer look

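Members, ratios and other named genes were searched for a library whose log2 value lay far from the rest of its group by Dixon's criterion at the 95% level, over 70 groups of 4 or 6 libraries. It was met 15 times, where about 1 in 20 independent groups would meet it by chance. The 70 groups share genes and libraries, so the 15 cannot be weighed against that rate. The gap to the nearest other library, as a share of the group's range, was 0.723 for Plin2, 0.676 for Plin4 and 0.806 for Pnpla2, each with LLC 1 highest. LLC 1 was also the highest in Cd36 (0.76), Acacb (0.665) and Insr (0.725) and the lowest in Fitm1 (0.806) and Rxrg (0.799).

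Control 4 was the lowest Control in the ratio of Adipoq to Plin5 (0.84) and of Plin1 to Plin5 (0.839). LLC 6 was the highest LLC library in the ratio of Plin1 to Pnpla2 (0.669). Control 3 was the highest Control in Plin4 (0.894) and Acsl3 (0.86) and the lowest in Rxra (0.843), and Control 2 was the lowest in Fitm2 (0.855). In Plin4 the 4 Controls spanned 227 to 252 CPM, so the gap of Control 3 was small in size.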

How the results depend on the processing

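Of 179 estimates of single members under alternatives, 166 kept their direction and side of the threshold, 5 became past it and 8 changed sign. The sign changes were in Fabp4 (-0.0045 with upper-quartile factors, -0.047 with limma voom, -0.058 with the replicate block, -0.0049 without Control 2 and -0.045 without LLC 5) and in Pnpla2 (-0.0998 with limma voom, -0.08 without LLC 1 and -0.0737 without both Control 4 and LLC 1). With 1 mouse left out Fabp4 ranged from -0.0448 to 0.0887 and Pnpla2 from -0.08 to 0.4091, and without Control 3 Adipoq was at -0.45 and Cidec at -0.55. The cause was not tested.

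The count of members past the threshold was 0 to 2 with 1 mouse left out, 3 with both left out and 2 with an unadjusted p and 1.5-fold. For the wider lists it was 1 to 3 with 1 mouse left out and 5 with the adjusted p alone: it was 1 (Scd1) without Control 1, Control 2, Control 4, LLC 5 or LLC 6. Of the 9 ratios, 0 to 9 passed with 1 mouse left out and 8 with both left out. Of the 15 correlations, 0 passed by Spearman's rho against 2 by Pearson's r. Without LLC 1 the count was 0, but 5 mice can hardly pass that test, and r for Cfd and Plin5 was 0.982.

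Replicate numbers are shared between the groups but did not pair the mice: the correlations of deviations of the 4 same-numbered pairs were -0.029, 0.009, -0.081 and 0.126. With the replicate block, 0 members and 0 of the wider genes were past the threshold by edgeR. Plin1 and Cidec had 2 to 31 counts per library, and the part of depth was not tested.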
